A study of Mus musculus with 8 samples.

Results

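Nrn1, Creg2, Nags, Tram2, St3gal1 and Zbtb7b were 6 genes whose transcripts were higher in Arid3b-null mouse embryos than in wild-type embryos. The 6 were picked as lying outside known stress gene lists, but their membership in hypoxia or cell stress gene sets was not checked here. They were chosen by name from the measured difference between the genotypes, among 17102 genes tested, so their own rise is given as a description with no test. Of 8 array probes that carry their names, 6 were bright enough to be used, 1 for each gene. The arrays hold total RNA from whole embryos at embryonic day 9.0. There were 4 wild-type and 4 null samples, each a pool of 3 to 4 embryos. Arid3b is a nuclear factor that binds AT-rich DNA. The sources used here give neither the strain, the construction of the null allele nor the litters of the pools, so p-values measure only the spread between these pools.

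The Arid3b transcript itself was at 39.2% of its wild-type level in the null pools (log2 difference -1.35 ± 0.15, SE, n = 4 per group) on the brightest of 3 probes, and at 30.2% and 30.8% on the others. Null pool 4 stood apart from the other null pools on all 3 probes, with a level of 2.48 against 1.83 to 1.89 on the brightest, and was still below every wild-type pool, the lowest of which was at 3.29. Without null pool 4 the differences described below were 2.76 for Nrn1, 2.04 for Creg2, 2.05 for Nags, 1.69 for Tram2, 1.10 for St3gal1 and 1.31 for Zbtb7b. The share of probes detected well above background was 60.1% to 64.1% per array. Precision is limited by the number of arrays. Pools 1 and 2 of each genotype were on slide 1 and pools 3 and 4 on slide 2, which were scanned separately. Wild-type pools held positions 1 and 2 of each slide and null pools positions 3 and 4, so position and genotype cannot be told apart. All 5 heart, 5 neural tube and 4 surface epithelium markers were well above background on all 8 arrays. Of 6 trophoblast and decidua markers on the array, Prl3d1, Ascl2 and Hand1 were well above background on all 8 arrays, Prl8a2 on 1, and Tpbpa and Gcm1 on none.

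The 6 genes do unrelated work. Nrn1 encodes neuritin, a small protein anchored at the neuron surface by a lipid, which promotes neurite growth and is induced by neural activity and neurotrophins. Creg2 encodes a secreted glycoprotein related to Creg1, the cellular repressor of E1A-stimulated genes, and is best known in brain. Nags makes N-acetylglutamate in mitochondria, the obligate activator of the first enzyme of the urea cycle. Tram2 is a membrane protein of the endoplasmic reticulum, related to a component that assists proteins through the translocon, and has been linked to collagen synthesis. St3gal1 is a Golgi enzyme that adds sialic acid to the core galactose of O-linked glycans. Zbtb7b, also called ThPOK, is a zinc finger repressor known for directing T cells to the CD4 lineage.

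Every value below rests on a single 60-base probe, so the first 30 bases of each are shown, 5′ to 3′, with the position of the whole probe on mouse build mm7 as the files give it. For Creg2 and Nags the second, dimmer probe is also shown, because it is a separate reading of the same gene. The sources used here do not say whether a probe lies in coding or untranslated sequence.
Nrn1: acgtgggaatcagccggtgaataatcatgc
Creg2: atagagacgtttctgtttatgccgtacgcc
Creg2, second probe: aggcgtcaaaggctttgaagagcaggttcc
Nags: ctggtctgccactcatttgggtctcaaaat
Nags, second probe: ctgtgggaatgccttcggagagacctgcaa
Tram2: agaagccttggcatcaaagggggagttcct
St3gal1: aataccaggaaaggtctagcctccaaacaa
Zbtb7b: aggttttggggcacaagctctctagattgg
The Nrn1 probe lies at chr13:36143032-36143091 on the minus strand. The Creg2 probes lie at chr1:39864205-39864264 and chr1:39862643-39862702, both on the minus strand. The Nags probes lie at chr11:102258443-102258501 and chr11:102257240-102257299 on the plus strand. The Tram2 probe lies at chr1:21197006-21197065, the St3gal1 probe at chr15:67190011-67190070 and the Zbtb7b probe at chr3:89505972-89506031, all on the minus strand.

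Levels are processed signals on a log2 scale minus the 75th percentile of their array, so a level of 0 is the signal that 75% of the probes on that array do not exceed. Levels are not compared between genes, because probes differ in brightness. Differences are null minus wild type with their SE from limma, and folds are ratios of geometric means. In bulk RNA, more cells of a type and more RNA per cell cannot be told apart. In each of the 6 genes every null pool was above every wild-type pool, a pattern seen in 8.08% of all genes tested. All 6 were among the 487 genes called higher in the null pools at an adjusted p under 0.05, which is 2.85% of all genes, while 4.2% (718 genes) were called in either direction. Without wild-type pool 4 the count in either direction was 93 and without null pool 4 it was 628, the lowest and highest with 1 pool left out. The genes were selected from this contrast, so nothing is read from these shares.

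Nrn1 had the largest difference of the 6 and the widest spread among null pools. Its level in wild-type pools 1 to 4 was -3.58, -3.42, -3.36 and -3.52, and in null pools 1 to 4 it was -0.99, -0.01, -1.13 and -1.30. Null pool 2 was well above null pools 1, 3 and 4, and even the lowest null pool was 2.06 log2 units above the highest wild-type pool. The mean went from -3.47 ± 0.10 to -0.86 ± 0.58 (SD, n = 4), a difference of 2.61 ± 0.26 or 6.11-fold. It ranked 9 among the differences of all 17102 genes. Set pool by pool against the wild-type pool of the same number, the fold was 6.01, 10.6, 4.68 and 4.68.

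Creg2 was close to 4-fold higher. Its level was -4.46, -4.17, -4.35 and -4.54 in wild-type pools 1 to 4 and -2.26, -2.06, -2.70 and -2.58 in null pools 1 to 4. The null pools of slide 1 were the higher ones, and the groups were 1.47 log2 units apart at their nearest. The difference was 1.98 ± 0.15, or 3.94-fold, and ranked 19. The second Creg2 probe was not well above background on any array, with processed signals of 6.78 to 11.1 in wild-type pools and 12.3 to 24.9 in null pools, so it gives no fold.

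Nags was more than 4-fold higher as measured, but its wild-type readings were partly at background. Its level was -5.79, -5.97, -5.81 and -5.43 in wild-type pools and -3.37, -3.87, -3.86 and -3.67 in null pools. Wild-type pools 2 and 3 were not well above background, whereas all 4 null pools were. The measured difference was 2.06 ± 0.15, or 4.17-fold, with the groups 1.56 log2 units apart at their nearest. The second Nags probe was detected above background in no wild-type pool and in null pools 1, 2 and 4. With wild-type pools raised to the lowest signal of any probe well above background on their array, the ratio was 1.90-fold. That is not a strict lower bound, since null pool 3 was averaged in and the floor was not set for this probe.

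Tram2 was very even among wild-type pools. Its level was -2.69, -2.73, -2.74 and -2.67 in wild-type pools and -0.90, -0.87, -1.29 and -1.03 in null pools. The wild-type SD was 0.04 and the null SD 0.19, and the nearest pools of the groups were 1.37 apart. The difference was 1.69 ± 0.10, or 3.22-fold, and the pairwise folds ran from 2.73 to 3.65.

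St3gal1 had the smallest difference of the 6. Its level was 0.78, 0.89, 0.94 and 0.89 in wild-type pools and 1.99, 2.09, 1.86 and 1.79 in null pools. The groups were 0.86 log2 units apart at their nearest. The difference was 1.06 ± 0.09, or 2.08-fold, and ranked 125 of all genes. As a description, 94 genes in all were called with a rise of at least 2-fold.

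Zbtb7b was 2.40-fold higher. Its level was -3.09, -2.87, -3.10 and -3.12 in wild-type pools and -1.58, -1.72, -1.90 and -1.92 in null pools. Wild-type pool 2 stood above the other wild-type pools and was still 0.94 below the lowest null pool. The difference was 1.26 ± 0.10, and the pairwise folds ran from 2.22 to 2.85.

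**Figure D1:**
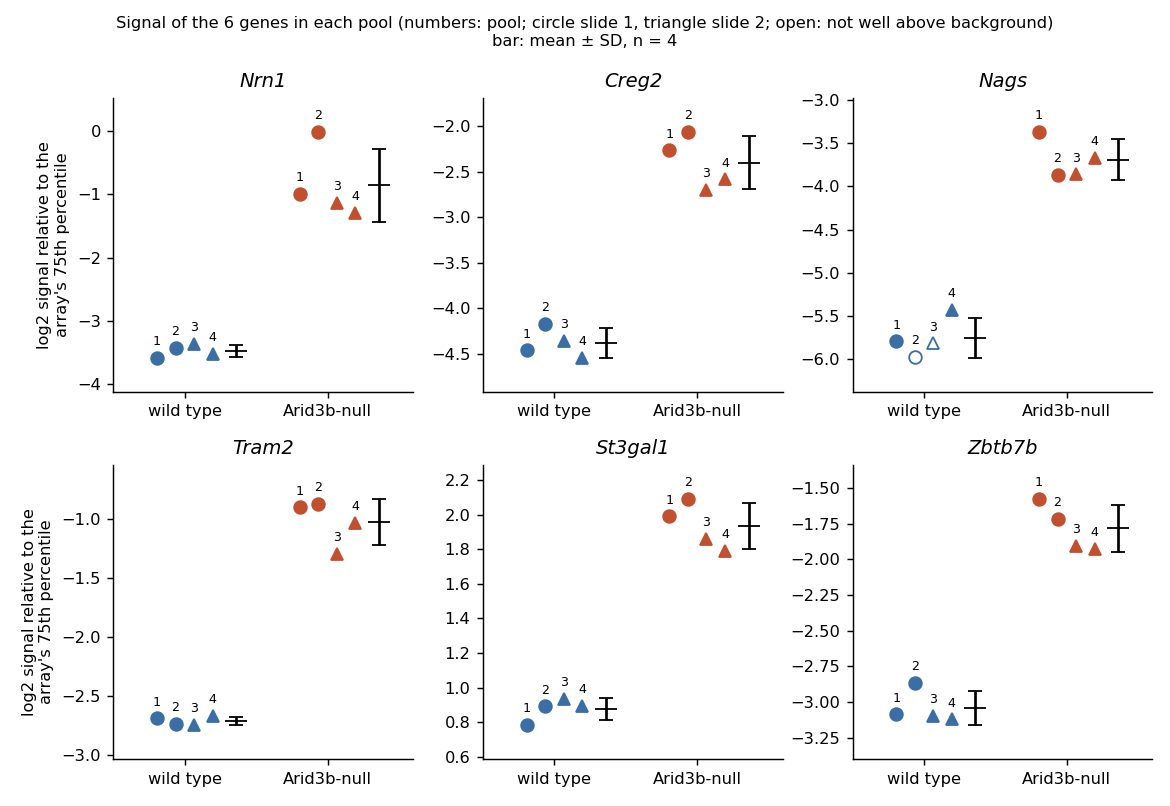
Log2 level relative to the array's 75th percentile (vertical axis) of each gene in the 4 wild-type and 4 null pools, with numbered points for pools (circles slide 1, triangles slide 2, open where not well above background) and bars for the group mean and SD. In all 6 genes the null points lie above all wild-type points, and Nrn1 has the widest null spread with an SD of 0.58.

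The size of these differences depended on the background setting and value table used, except for St3gal1. The normexp setting adds an offset of 50 to each signal. Such an offset lowers the log2 difference of a dim probe more than that of a bright one. Processed signals in wild-type pools were 21.3 to 34.6 for Nags, 63.9 to 82.2 for Creg2 and 2485 to 3211 for St3gal1. With normexp background correction the difference of Nrn1 was 1.53, of Tram2 1.09, of Creg2 0.75, of Zbtb7b 0.69 and of Nags 0.30 ± 0.62, the last no larger than its SE. St3gal1 was 1.07 under the same correction. In the deposited value table, whose processing the sources used here do not describe, Nrn1 differed by 2.14, Tram2 by 1.48, Creg2 by 1.36, Zbtb7b by 1.05 and Nags by 1.002. St3gal1 differed by 1.08 there. All 6 differences were positive under each setting tried.

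**Figure D2:**
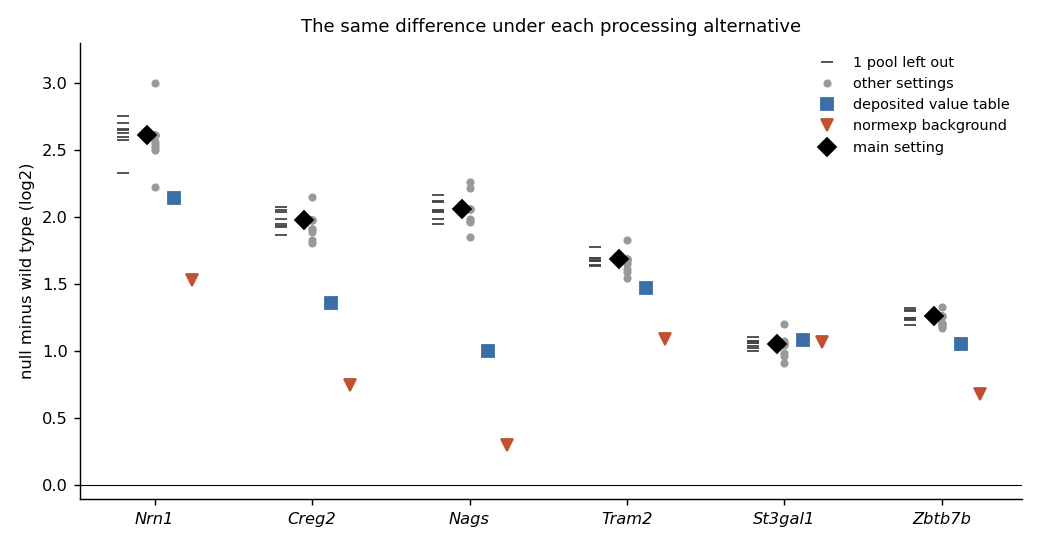
Null minus wild-type log2 difference (vertical axis) of each gene under each setting, with a diamond for the value as reported, dashes for 1 pool left out, a square for the deposited table, a triangle for normexp and grey points for the rest. The triangle for Nags lies at 0.30 against its diamond at 2.06, while for St3gal1 they lie at 1.07 and 1.06.

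Slide offers a comparison that did not choose these genes, since each slide held both genotypes equally. Between slides, 12.4% of 17100 genes were called at an adjusted p under 0.05, and 0 of the 6 genes were among them (limma with genotype and slide terms). This fit counts the 8 pools as independent, whereas same-numbered pools deviated together and lie on the same slide, so its p-values are too small. With the pair of same-numbered pools as a random effect 6.44% of genes were called, and on the means of the pairs, 2 per slide, 4.49%, with 0 of the 6 genes in either case. Creg2 was estimated at -0.31 ± 0.11 on slide 2 relative to slide 1, with an adjusted p of 0.131 by limma and of 0.328 with the random effect. Nrn1 differed between slides by -0.33 ± 0.24 and Nags by 0.06 ± 0.16, with adjusted p of 0.43 and 0.851. The remaining estimates were -0.14 ± 0.09 for Tram2, -0.07 ± 0.08 for St3gal1 and -0.20 ± 0.08 for Zbtb7b, with adjusted p of 0.379, 0.63 and 0.137. These values are estimates with their SE, and a missed threshold does not show that slides were alike.

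The genotype difference was estimated lower on slide 2 for all 6 genes, but no gene of the set passed the test of that change. Nrn1 was 3.00 higher in null pools on slide 1 and 2.23 higher on slide 2, an interaction of -0.77 ± 0.42. Creg2 went from 2.15 to 1.81, Nags from 2.26 to 1.85 and Tram2 from 1.83 to 1.54. St3gal1 went from 1.20 to 0.91, with an interaction of -0.29 ± 0.13 and an unadjusted p of 0.0704 by limma. The St3gal1 differences of same-numbered pools were 1.21 and 1.20 on slide 1 and 0.92 and 0.90 on slide 2. Zbtb7b went from 1.33 to 1.20. The fit behind these SE and p-values counts the pools as independent, although same-numbered pools deviated together. Its SE therefore do not measure the spread of the differences between same-numbered pools. After Benjamini-Hochberg adjustment over 17100 genes the interaction p was 1 for all 6, and 0.00585% of genes were called, which is the single gene Gm270, named after its values were seen. With the replicate block 0 of 17100 genes were called for the interaction, and 768 had an unadjusted p under 0.05 by limma, against 376 without it. The SE and p of the 6 genes in the fit with the block are not given. The negative sign of the interaction was shared with 412 of the 487 genes called higher and with 7833 of 17100 genes overall. The same comparison in the markers gave 2.54 and 2.22 for Ndrg1 and 1.77 and 1.41 for Ddit3.

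**Figure D3:**
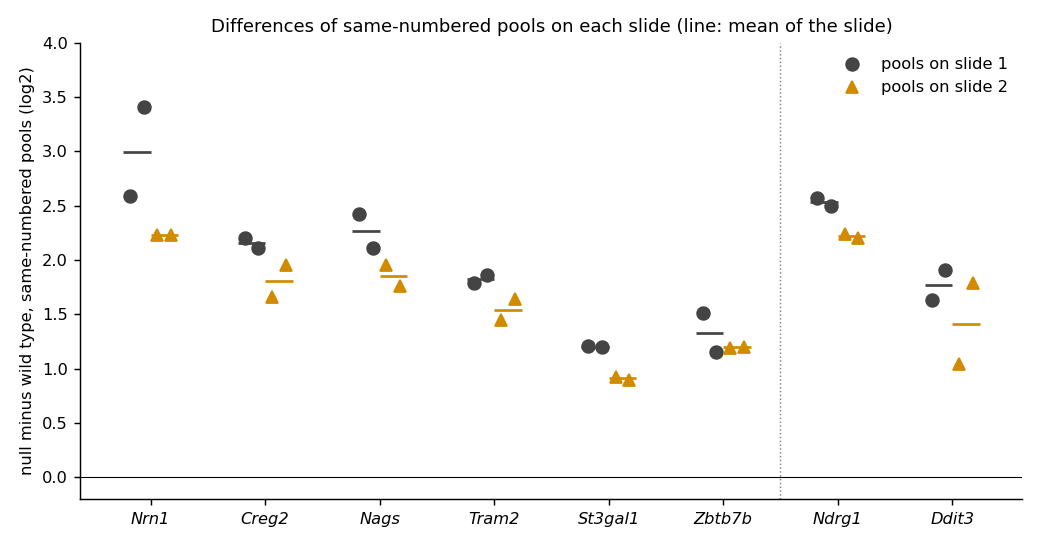
Log2 difference of same-numbered null and wild-type pools (vertical axis) for the 6 genes and the markers Ndrg1 and Ddit3, with circles for slide 1, triangles for slide 2 and a short line for each slide's mean. For each gene the slide 1 mean lies above the slide 2 mean, at 3.00 and 2.23 for Nrn1, and none of the 6 interactions passed the test.

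Ndrg1, a stress-responsive gene that hypoxia induces, and Ddit3, which encodes the stress transcription factor CHOP, were used as markers. Ndrg1 was 5.21-fold higher and Ddit3 3.01-fold higher in null pools. Their levels in wild-type pools 1 to 4 were 0.30, 0.48, 0.33 and 0.14 for Ndrg1 and -2.46, -2.45, -2.31 and -2.57 for Ddit3. In null pools 1 to 4 they were 2.87, 2.98, 2.57 and 2.34 for Ndrg1 and -0.83, -0.55, -1.27 and -0.78 for Ddit3. Because all of these genes differ between genotypes, the 8 pools fall into 2 clusters and a correlation over them would restate that difference. The genotype mean was therefore removed from each gene first, and the correlation of what was left over the 8 pools is given as a description with no p.

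Creg2 had the highest r with Ndrg1 of the 6 before slide means were removed, with a within-genotype Pearson r of 0.89 and Spearman rho of 0.90. Of 17003 genes with a value on all arrays, 1.35% had an r with Ndrg1 at least as high, and of those called higher 5.39%. Zbtb7b followed with 0.84, then St3gal1 with 0.81 and Nrn1 with 0.75. Tram2 had 0.48 and Nags -0.22, and 57.3% of all genes had at least the value of Nags. For St3gal1 the r was 0.98 among the 4 null pools but 0.06 among the 4 wild-type pools. For Tram2 and Nags it was 0.61 and 0.11 among null pools but -0.81 and -0.97 among wild-type pools. Creg2, Zbtb7b and Nrn1 were above 0 in both genotypes. With Ddit3 the order was different. Tram2 had the highest r, 0.81 (rho 0.36), reached by 0.629% of all genes, but this came from the null pools, with 0.93 among those 4 and -0.84 among the 4 wild-type pools. It was followed by Creg2 with 0.75 and Nrn1 with 0.64. St3gal1 had 0.54, Zbtb7b 0.35 and Nags -0.06. The markers had an r of 0.46 with each other. Pools share slide and scan, so the mean of each genotype on each slide was also removed. Each such mean came from a pair of pools, whose remainders are then equal and opposite. Each r therefore rests on only 4 free values, too few to rank the genes, and is a description only. The r with Ndrg1 was 0.88 for St3gal1, 0.55 for Creg2, 0.54 for Nrn1, 0.36 for Zbtb7b, -0.79 for Tram2 and -0.82 for Nags. The r of Tram2 with Ddit3 was then 0.68.

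Deviations were larger among the null pools, except for Nags, whose SD was 0.2305 in wild-type and 0.2325 in null pools. The mean deviation of the 6 genes from their genotype mean was 0.12, 0.23, -0.20 and -0.15 in null pools 1 to 4 and between -0.06 and 0.03 in the wild-type pools. Of the 6 genes, 5 were above their mean in null pool 1 and 5 in null pool 2, against 0 in null pool 3 and 1 in null pool 4. Among the 15 pairs of the 6 genes r ran from -0.32 to 0.86 with a median of 0.53, and 13 were above 0. Shares of all genes, or of genes called higher, were not computed for these counts, so they do not set the 6 genes apart. A smaller difference on slide 2 was also estimated for 412 of the 487 genes called higher, and a negative interaction for 7833 of 17100 genes. Nags had the lowest r of the 6 with both markers.

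**Figure D4:**
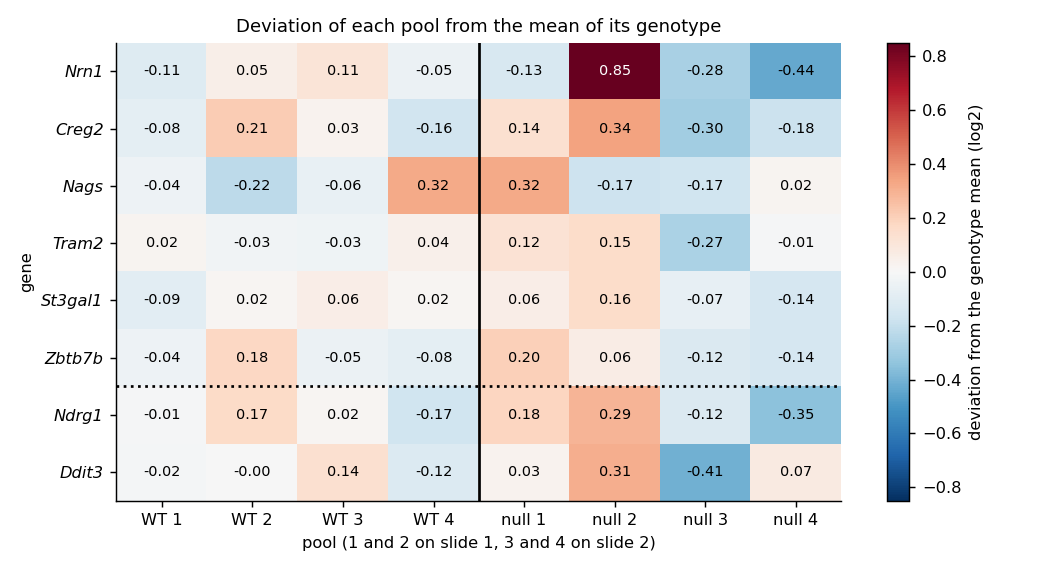
Deviation from the genotype mean in log2 units, as colour and printed value, for the 6 genes and the markers (rows) in each of the 8 pools (columns). Null pools 1 and 2 lie mostly above 0 and null pools 3 and 4 mostly below, with the mean over the 6 genes at 0.23 in null pool 2 and -0.20 in null pool 3.

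For each of the 6, the genes called higher whose within-genotype deviations were most alike were sought among 423 candidates, over the same 8 pools. Nrn1 was most like Kcne3, a potassium channel subunit, with r = 0.978, and Hspb11, a component of the intraflagellar transport machinery, with r = 0.977. Creg2 was most like Prnp, the prion protein gene, with 0.947, and Hikeshi, a nuclear import carrier of heat shock proteins, with 0.946. St3gal1 was most like Aldoc, a glycolytic aldolase, with 0.939, and Ier3, an immediate early gene, with 0.926. Zbtb7b was most like Hmox1, the haem oxygenase gene, with 0.924, and Cldn8, a tight junction protein, with 0.914. Tram2 was most like Chac1, a glutathione-degrading enzyme, with 0.87, and Trit1, a tRNA-modifying enzyme, with 0.83. Nags had no close match, its highest being Cdon, a cell surface co-receptor, with 0.691, and Bhlhe41, a transcription repressor, with 0.659. With 8 pools and 423 candidates, values of this size are a description only.

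Relatives and partners of the 6 genes were then read in the genotype comparison. Their lists hold family members, partners and pathway genes. They were drawn up with earlier results of these data known, so their independence of this comparison is not established. Of 84 genes on 6 lists, 79 were measured, and 3 rose and 0 fell at an adjusted p under 0.05. That is 3.8% of those measured, near the 4.2% of all genes, and their median difference was 0.03 against -0.01 for all genes. With the replicate number as a block 11 were called higher and 2 lower, which is 16.5% of the 79, beside 13.7% of all genes in the same fit. With normexp background correction 0 were called. With a Y-linked level, described below, as a covariate 6 of the 79 were called, beside 304 of all 17102 genes. These were Bcl6, Gls2, Insr, Igf2r, Zbtb20 and Zbtb32. The 3 genes called without a block or covariate were Bcl6, Gls2 and Bdnf. With a median shift between arrays only Bcl6 kept its call (adjusted p = 0.0282, limma), with 0.0787 for Gls2 and 0.208 for Bdnf.

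Around Zbtb7b, 14 of 15 POZ zinc finger relatives and T cell lineage partners were measured and 1 rose. Bcl6, a POZ zinc finger repressor, was -2.81, -2.86, -2.70 and -2.79 in wild-type pools and -2.03, -1.75, -1.77 and -1.99 in null pools. The groups did not overlap, and the difference was 0.90 ± 0.09, or 1.87-fold (adjusted p = 0.00427, limma). The nearest paralogues did not pass, Zbtb7a with a difference of 0.03 ± 0.07 and Zbtb7c with 0.15 ± 0.12 (adjusted p of 0.871 and 0.539).

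Around Nags, 12 of 14 genes of the urea cycle and glutamate supply were measured and 1 rose. Gls2, a mitochondrial glutaminase that releases glutamate, was 0.70 ± 0.10 higher, or 1.62-fold (adjusted p = 0.0151, limma). Its wild-type pools lay between -1.07 and -0.98 and its null pools between -0.58 and -0.13. The call was lost without wild-type pool 1, 2 or 4 or null pool 3, with an adjusted p of 0.0522 to 0.0611. With the replicate block Ass1 and Asl, consecutive enzymes of the urea cycle, were also called higher and the ornithine carrier Slc25a15 was called lower (adjusted p of 0.0461, 0.0327 and 0.0414). That made 3 of 12 higher and 1 lower, beside 1331 higher and 1012 lower of all 17102 genes in the same fit. Cps1, the urea cycle enzyme that N-acetylglutamate activates, and Otc did not pass the brightness filter.

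Around Nrn1, 5 of 6 genes were measured and 1 rose. With the replicate block 3 of 5 were called higher, the others being Ntrk2, the receptor of Bdnf, and Insr, the insulin receptor (adjusted p of 0.0264 and 0.0246). That fit called 1331 of all 17102 genes higher, and a list of 5 is too small to read a share from. Bdnf, the neurotrophin that induces Nrn1 in neurons, was -3.36, -3.25, -3.40 and -3.40 in wild-type pools and -2.87, -2.75, -2.95 and -3.02 in null pools. The difference was 0.46 ± 0.08, or 1.37-fold (adjusted p = 0.0285, limma). The call held without null pool 2 or 4 and was lost without any of the other 6 pools, and with the Y-linked covariate (adjusted p = 0.0932, limma). Nrn1l, its paralogue, differed by -0.27 ± 0.24 (adjusted p = 0.6, limma).

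Around Creg2, Tram2 and St3gal1, 0 of 2, 0 of 15 and 0 of 31 measured genes were called. Creg1 differed by 0.30 ± 0.16 and Igf2r, the receptor for lysosomal glycoproteins, by 0.42 ± 0.12 (adjusted p of 0.323 and 0.100). Of 15 translocon genes Srprb, a signal recognition particle receptor subunit, differed by -0.57 ± 0.25 and Tram1 by -0.14 ± 0.11 (adjusted p of 0.249 and 0.517). Of 31 measured sialylation and O-glycan genes the smallest p was that of Neu1, a sialidase that removes sialic acid, with 0.58 ± 0.14 (adjusted p = 0.0564, limma). With the replicate block Srprb was called lower (adjusted p = 0.017, limma), and 4 genes of these lists were called higher. These were Neu1, Igf2r, St3gal6, another sialyltransferase, and Galnt3, which starts O-glycans, with adjusted p of 0.0211, 0.0278, 0.0427 and 0.0469. The fit with the block called 1331 of all 17102 genes higher and 1012 lower. St3gal2, which acts on similar glycans, differed by -0.14 ± 0.07 (adjusted p = 0.288, limma).

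**Figure D5:**
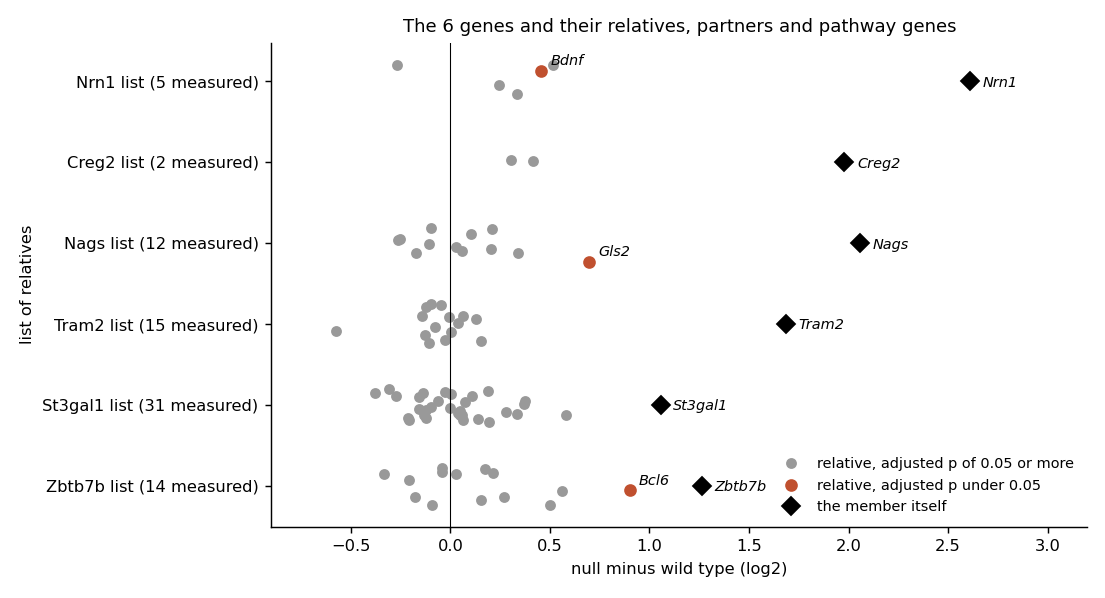
Null minus wild-type log2 difference (horizontal axis) of each measured relative (round points) and of the gene its list belongs to (diamond), with 1 row for each list. Coloured points mark the 3 called relatives, with Bcl6 at 0.90, Gls2 at 0.70 and Bdnf at 0.46, each below the diamond of its row.

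The relative abundance of marker transcripts also differed between pools, and its part in the rise of these 6 genes was not tested. Summed levels of 9 early neuron markers, all well above background on every array, were 7.10 to 9.77 in wild-type pools and 5.99 to 7.14 in null pools, in units of the array's 75th percentile, with 0 called. Of 6 T cell markers Cd3e, Cd4 and Lck were well above background on all 8 arrays, Ptprc on 1, and Cd3g and Cd8a on none, and the summed level of the list was 1.31 to 1.495 in wild-type and 1.36 to 1.95 in null pools. The 5 heart markers summed to 119.4 to 126.7 in wild-type and 135.8 to 157.1 in null pools, so the ranges did not overlap. The 5 neural tube markers summed to 44.5 to 51.3 and 38.9 to 39.5, also without overlap. In both lists 0 of 5 markers were called. Among single genes every null pool was above every wild-type pool in 8.08%, the direction of the heart sum but not of the neural tube sum. The share of genes with every null pool below every wild-type pool is not given, and a share for summed levels was not computed. Surface epithelium markers overlapped slightly, with 74.7 to 95.4 and 95.01 to 117.0. The sums of the red cell, yolk sac and liver, trophoblast and decidua, and somite lists overlapped too. Of 47 markers tested on 9 lists 1 was called, the red cell factor Klf1, which was lower (adjusted p = 0.0377, limma). A Y-linked level, the mean over 4 Y-linked genes of each gene's share of its highest pool, also varied between pools. It ran from 0.0228 to 0.836 in wild-type and from 0.479 to 1 in null pools. With it as a covariate the 6 differences ran from 1.04 to 2.50.

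The table of RefSeq promoter windows used here (build GRCm38.p6) covers 4 of the 6, Creg2, Nags, Tram2 and Zbtb7b, reaching 250 bases before and 50 after a start site. They were searched on both strands for ACGTG and GCGTG, core letters of hypoxia response elements, for TGATGNAAN, an ATF4 and C/EBP composite element, for the E box CACGTG, which contains ACGTG, and for AATTAA, AT-rich letters of the ARID3 kind. Of 32851 mouse promoter windows of the same length, GCGTG was in 32.4%, ACGTG in 19.6%, AATTAA in 11.3%, CACGTG in 7.15% and TGATGNAAN in 3.95%. The Creg2 window held GCGTG at 2 overlapping places beside the start site, at -6 and -3, and TGATGNAAN at -217. The Tram2 window held GCGTG at -230 and 25. The Nags window and both Zbtb7b windows held none of the 5. A match describes letters only, and these were counted with no test.
The Creg2 promoter is shown because it is the only one of the 5 windows with letters of both stress elements, from 250 bases before the start site to 5 bases after it (chr1:39651178-39651432, GRCm38.p6, minus strand, 5′ to 3′), with matches in capitals.
Creg2 promoter: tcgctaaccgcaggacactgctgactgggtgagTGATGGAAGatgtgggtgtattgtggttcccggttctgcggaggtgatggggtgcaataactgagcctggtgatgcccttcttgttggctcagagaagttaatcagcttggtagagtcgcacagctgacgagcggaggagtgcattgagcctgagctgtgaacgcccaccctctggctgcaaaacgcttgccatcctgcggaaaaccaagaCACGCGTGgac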

How the data were processed

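Total RNA of 8 pools was hybridised to 1-colour Agilent arrays. Per the file headers, the deposited processed intensity of each spot is its Cy3 brightness after background subtraction within the array, with nothing scaled between arrays. The deposited mean and local background intensity served the normexp correction (offset 50). The deposited value table holds log2 values of 27108 probes, with column medians of 9.44 to 9.47, correlating at 0.988 or more with the log2 processed signal. The authors' scaling, constant and background correction for it are not given in the sources used here.

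Control spots (1639 of 45018) and 87 to 175 flagged spots per array were left out. The 75th percentile of its array was taken from each log2 signal. A probe was used where 4 or more of the 8 arrays read it well above background (25559), with the brightest for a gene, if each group had 2 or more values. Names were updated through RefSeq (GRCm38.p6): 22951 probes by accession, 6659 by symbol, 3109 by an older name, and 8455 kept the file's name. Probe coordinates come from the files (mm7). Limma 3.58.1 in R 4.3.3 was fitted across all genes with Benjamini-Hochberg adjustment. Same-numbered pools deviated together, with correlations of 0.557, 0.635, 0.523 and 0.426 for numbers 1 to 4, all over 0.1. Wild-type pools 1 to 4 had at most 0.118, -0.036, 0.318 and 0.496 with a null pool of another number. The highest value of each null pool with other wild-type pools is not given. Numbers were taken to pair the pools, though wild-type pool 4 matched a null pool of another number better than its own. On simulated data for 17004 genes the genotype fit recovered 34%, 84% and 96% of genes changed 1.5-, 2- and 4-fold, and 7 of 156 calls were false. That simulation drew the 8 pools independently, without the pair or slide effects of these data, so its rates hold for that case only.

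The genes, lists and tests were chosen with earlier results of these data known. Named are the 6 genes, Arid3b, Ndrg1 and Ddit3, up to 4 called relatives per list or else the one with the smallest p, the nearest paralogues, and for each gene the 2 most alike among those called higher. Alternatives covered background correction, scaling, filter, covariates, blocks and left-out pools.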

Additional observations from a re-analysis of the deposited data

Results flagged for a closer look

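Zbtb7b in wild-type pool 2 lay apart from the other wild-type pools, at a log2 level of -2.87 against -3.09 to -3.12 in pools 1, 3 and 4. The gap to the nearest pool was 0.86 of the range of the group, above Dixon's 95% critical value for 4 samples. Arid3b in null pool 4 was at 2.48 against 1.83 to 1.89 in the other null pools, a gap of 0.90 of the range. Ntrk2 in wild-type pool 2 was at 0.28, with a gap of 0.92 of the range. These were 3 of 56 groups of pools tested, over the 6 genes, Arid3b, the markers and the relatives given with a difference or a call, and chance alone marks about 1 in 20.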

How the results depend on the processing

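Of 120 values of the 6 genes under other settings, 106 moved by less than the spread between replicates, 14 moved more and 0 changed sign. The moved ones were, with normexp, Nrn1 1.53, Creg2 0.75, Nags 0.30, Tram2 1.09 and Zbtb7b 0.69, in the deposited table Nrn1 2.14, Creg2 1.36, Nags 1.002, Tram2 1.48 and Zbtb7b 1.05, and on slide 1 and 2 alone Tram2 1.83 and 1.54 and St3gal1 1.20 and 0.91. Leaving out 1 pool gave 2.33 to 2.76 for Nrn1, 1.87 to 2.08 for Creg2, 1.95 to 2.17 for Nags, 1.63 to 1.78 for Tram2, 1.004 to 1.10 for St3gal1 and 1.19 to 1.32 for Zbtb7b. The 718 genotype calls became 0 with normexp (737 at an unadjusted p under 0.05, limma), 204 with a median shift, 157 with no shift, 308 in the deposited table, 164 without the filter, 1370 with slide as a block, 2343 with the replicate block, 304 with the Y-linked covariate, and 0 on slide 1 or slide 2 alone (1881 and 2861 unadjusted, limma). Without 1 pool they ran from 93 to 628. Of the calls 487 were higher, against 106 of 204 with the median shift and 125 of 157 with no shift. The 2124 slide calls became 28 with normexp and 3676 in the deposited table, and ran from 1325 to 2268 without 1 pool. The number as a fixed term could not be fitted with slide, since numbers lie within slides. With the pair as a random effect, chosen after seeing the data like the next, 1102 slide calls were made, and 764 on the means of same-numbered pools. The 1 interaction call became 12 without the filter and 0 with normexp, quantile scaling, no shift, the deposited table or the replicate block (17, 385, 199, 353 and 768 unadjusted, limma), and 0 to 5 without 1 pool. The 3 called relatives became 0 with normexp, 1 with a median shift, 1 with no shift, 6 with the Y-linked covariate and 13 with the replicate block, and 1 to 4 without 1 pool. The counts with the covariate and the block are out of 79 relatives, beside 304 and 2343 of all 17102 genes. Within-genotype r changed sign for Nags with Ndrg1 (0.20, quantile), Nags with Ddit3 (0.20, quantile), Tram2 with Ndrg1 (-0.79, slide means removed) and Zbtb7b with Ddit3 (-0.25, slide means removed). The cause of these changes was not tested, and with slide means removed each r rests on only 4 free values. Dim signal limits Nags most, at or near background in wild-type pools.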
